A study of Mus musculus with 20 samples.

Results

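The zinc finger genes numbered Zfp600 to Zfp999 are mouse genes that carry the root symbol Zfp and a number from 600 to 999. They were picked out here by that symbol alone. The rule reads no measured value, but earlier results of these data were known when it was chosen. Of the 13283 genes in the deposited expression table, 152 carry such a symbol, beside 184 other Zfp genes with lower numbers. Expression was measured by RNA sequencing in 20 libraries of male C57BL/6 mouse embryonic stem cells grown in serum, LIF and the 2i inhibitors. The study asked how loss or mutation of Trim71, which encodes an RNA-binding and ubiquitin ligase protein, changes the transcriptome of these cells.

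The first system held 4 libraries of Trim71-cond cells, whose genotype is given as Trimfl/fl, and 4 of Trim71-KO cells. The labels do not say how the knockout was induced or from how many cultures the libraries came. The second system held cell clones with an unmodified Trim71 (WT), with 1 R595H allele (R595H/+) or with 2 (R595H/R595H), where R595H replaces an arginine by a histidine and corresponds to a human mutation found in congenital hydrocephalus. Each clonal genotype had 3 clones and 4 libraries: C16, C7 and C5 for WT, C15, C21 and C23 for R595H/+, and C14, C20 and C24 for R595H/R595H, with C16, C15 and C14 sequenced under both date codes, 20/1 and 5/2. Nothing in the labels says that the conditional libraries came from separate cultures, so their p-values measure only the spread between these libraries.

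Most genes of this kind encode proteins with tandem C2H2 zinc fingers, each finger contacting a few bases of DNA. Where a KRAB domain lies ahead of the fingers, it recruits the corepressor TRIM28 (KAP1), which brings the histone methyltransferase SETDB1 and HP1 proteins to the bound site. In embryonic stem cells this system is known for silencing endogenous retroviruses and for keeping DNA methylation at imprinted regions. KRAB zinc finger genes arose largely by tandem duplication, so that close relatives lie side by side.

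By patterns of amino acid letters searched in the translated GENCODE vM21 models (GRCm38), 106 of the 152 genes had both a KRAB domain and fingers, 39 had fingers with no KRAB match, 3 had a KRAB match alone and 4 had neither. A missing match says only that the pattern was not found. The median number of fingers was 12 in the first class and 9 in the second, and the most in any gene was 33. All 152 are annotated as protein coding, and 100 of them lie in 16 chromosomal clusters of at least 3 such genes with starts within 1 Mb of the next. The largest holds 17 genes at chr4:145510759-147848366, followed by 14 genes at chr17:21383748-22867134 and 9 each at chr7:41633203-43618285 and chr7:127244274-127885996.

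Near-identical copies limit how well reads can be assigned. Windows of 100 bases were taken from a single transcript of each gene, the one with the longest coding sequence. In 91 of the 152 genes no window was shared with a transcript of another gene. At least 10% of the 100-base windows were shared in 33 genes and at least 50% in 9. Shared sequence outside the chosen transcript is missed by this measure. Among the genes described below, Zfp991 shared 73.84% of its windows, mostly with Znf41-ps, Zfp993 shared 71.85%, mostly with Zfp991, and Zfp600 shared 67.65%, mostly with Rex2. Values of such genes are uncertain, since the authors' counting could have split or dropped the shared reads. Exons of another gene overlapped 42 members. The overlap covered 19.3% of Zfp652 exon bases on the other strand (Abi3 and Zfp652os) and 11.8% on the same strand (Phospho1). The kit named in the labels does not mark strand, so reads of overlapping genes cannot be told apart.

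The promoters of neighbouring relatives can be nearly the same, and those of the adjacent genes Zfp975 and Zfp976, which changed together in Trim71-KO cells, are shown for that reason. Zfp819, which lies in the same cluster and went the opposite way, is shown beside them. The windows are 300 bases long and cover the annotated start, with most of their length before it (RefSeq, GRCm38.p6), written 5′ to 3′ on the gene's strand. Capitals mark CCAAT on the printed strand or its reverse complement ATTGG. The Zfp975 window is chr7:42692669-42692968 on the minus strand, that of Zfp976 is chr7:42642555-42642854 on the minus strand and that of Zfp819 is chr7:43606919-43607218 on the plus strand.
Zfp975: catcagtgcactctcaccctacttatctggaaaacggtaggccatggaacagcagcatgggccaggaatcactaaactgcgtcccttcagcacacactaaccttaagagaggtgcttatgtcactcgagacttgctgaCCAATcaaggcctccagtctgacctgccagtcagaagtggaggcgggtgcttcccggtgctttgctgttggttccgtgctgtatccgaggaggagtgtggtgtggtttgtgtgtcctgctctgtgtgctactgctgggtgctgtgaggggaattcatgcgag
Zfp976: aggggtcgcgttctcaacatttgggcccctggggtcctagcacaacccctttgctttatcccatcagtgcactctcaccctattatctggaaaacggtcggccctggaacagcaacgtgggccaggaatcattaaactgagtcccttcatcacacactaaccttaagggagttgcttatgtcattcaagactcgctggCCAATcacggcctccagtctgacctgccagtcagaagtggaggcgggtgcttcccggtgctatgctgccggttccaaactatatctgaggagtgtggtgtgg
Zfp819: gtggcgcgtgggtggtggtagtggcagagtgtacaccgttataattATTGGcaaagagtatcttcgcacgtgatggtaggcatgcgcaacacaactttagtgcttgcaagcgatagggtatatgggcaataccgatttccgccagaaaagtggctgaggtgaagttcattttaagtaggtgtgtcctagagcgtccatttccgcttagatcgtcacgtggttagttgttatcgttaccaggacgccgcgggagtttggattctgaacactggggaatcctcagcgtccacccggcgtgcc

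Over 239 aligned bases the Zfp975 and Zfp976 windows were 90.8% identical. Windows of the same length were found for 130 of the 152 genes (158 windows, some genes having more than one). CCAAT, on either strand, stood in 58.9% of these windows, against 39.2% of the windows of the other numbered Zfp genes and 37.4% of all 32851 windows. The share was 69.4% of 108 windows in the class with KRAB and fingers and 31.8% of 44 windows in the class without a KRAB match. TATAAA, on either strand, stood in 5.06% of the windows against 13.6% of all, and CCGGAAGT, on either strand, in 6.96% against 3.89%. No motif of the 3 contains another. The matches are descriptions of the letters, not evidence of a bound factor, and relatives that share descent are not independent windows.

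Before the members are compared, the libraries need describing. Trim71 itself read 7.43 to 7.53 (log2) in the 4 Trim71-KO libraries against 8.93 to 9.01 in Trim71-cond, and it read 10.0 to 10.2 in R595H/R595H against 9.48 to 9.54 in WT. All 10 embryonic stem cell markers were in the table and 9 passed the filter on low values, 1 of 7 feeder markers was in the table and none passed it, and none of 7 primitive endoderm markers passed it. Of 7 neural progenitor markers 3 were in the table and 2 passed it. The summed level (log2) of the 3 was 7.16 to 7.37 in Trim71-KO and 6.97 to 7.15 in Trim71-cond. It was 6.83 to 7.04 in R595H/+ and 6.69 to 6.82 in WT, and 6.72 to 7.02 in R595H/R595H, which overlapped WT. The summed level of the stem cell markers was 13.3 to 13.4 in Trim71-KO and 13.1 to 13.2 in Trim71-cond. Trim71-KO and Trim71-cond thus did not overlap there either. The sum is of unlogged levels, so the genes of highest level lead it, and it does not show that every marker rose. Zfp42, which is on this marker list, fell by 0.20 in Trim71-KO (limma adjusted p = 0.0394). The other markers are not given singly here. Lars2, which encodes the mitochondrial leucyl-tRNA synthetase, took 0.334 to 13.2% of the summed unlogged values of a library in R595H/R595H, 1.11 to 6.73% in WT, 0.498 to 3.96% in R595H/+, 3.10 to 7.57% in Trim71-cond and 2.61 to 6.28% in Trim71-KO. All 6 two-cell-like markers were in the table and 2 passed the filter. Their summed level (log2) was 5.47 to 6.02 in Trim71-KO and 5.52 to 5.72 in Trim71-cond, which overlapped. It was 5.69 to 5.84 in WT, 5.52 to 5.75 in R595H/+ and 5.60 to 5.74 in R595H/R595H. The part of all these markers and of Lars2 in the results was not tested. Libraries C14 20/1 and C14 5/2 differed by an SD of 0.0331 across genes, and both differed from clone C24 by 0.0918 to 0.0923. The other 13 pairs of clones of one genotype differed by 0.12 to 0.247, and the pairs of dates of C15 and C16 by 0.148 and 0.151. Results on R595H/R595H are therefore also given with C14 and C24 taken as 1 value. The mean of 4 Y-linked genes ran from 3.72 to 4.36 in R595H/R595H and from 3.89 to 6.00 in WT, and from 5.65 to 5.80 in Trim71-KO, below the 5.88 to 6.20 of Trim71-cond. Its part in the knockout comparison was not tested. Libraries Trim71-cond 1A and Trim71-KO 1A deviated from their group means in opposite directions across genes (r = -0.89, the points sharing normalization). Without both, the members called in the knockout numbered 17 higher and 6 lower, of which 19 were also called with them. Zfp622, Zfp626, Zfp688 and Zfp820 lost their calls, and Zfp747, Zfp777, Zfp984 and Zfp988, named here after their values were seen, were called instead. The source of the opposite deviations was not tested.

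A gene was tested where its mean level over the libraries of the fit was at least the log2 of 10, which 126 members passed in the conditional libraries and 127 in the clones. Another 25 were under this level in both systems, with means from 0.15 (Zfp963) to 3.29 (Zfp653). Zfp668 was among them. Zfp708, Zfp608 and Zfp703 were not in the table. Means of the members that passed ran from 3.33 (Zfp935) to 9.68 (Zfp638), with a median of 5.84 against 6.14 for all genes that passed. The spread between replicates was like that of other genes: the median pooled SD was 0.113 for members and 0.108 for all genes in the conditional libraries, and 0.122 against 0.113 in the clones.

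Per kilobase of exon, the highest levels all belonged to the chromosome 4 cluster. On the log2 scale of level per kilobase, Zfp985 stood at 7.65, Zfp981 at 7.57, Zfp978 at 7.43, Zfp979 at 7.32 and Zfp988 at 6.90. These genes carry a KRAB domain with 3 to 14 fingers, and Zfp978 and Zfp988 share 56.04% and 44.56% of their windows with other genes. The lowest per kilobase were Zfp865 at 0.51, Zfp821 at 1.00, Zfp964 at 1.14, Zfp827 at 1.14 and Zfp846 at 1.17. Of these 10 genes Zfp988 alone was called in any of the 5 comparisons, the one that set the effects in both systems against each other.

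In Trim71-KO cells more of these genes rose than fell. Of the 126 tested, 17 were higher and 6 were lower than in Trim71-cond at an adjusted p under 0.05 by limma, with Benjamini-Hochberg adjustment over all genes tested. Among all 9580 genes tested, 9.24% were called higher and 9.37% lower, so that members were called higher at 13.5% and lower at 4.76%, and the share called in either direction, 18.3%, was near the 18.6% of all genes. The differences were small: the median over the 126 members was 0.08 on the log2 scale against 0.00 over all genes, and 94 members (74.6%) stood above 0 against 49.4% of all genes. In 18 members every Trim71-KO library was above every Trim71-cond library, and in 5 every one was below, against 10.6% and 10.2% of all genes. These are bulk samples, in which fewer cells that express a gene and less RNA of it per cell cannot be told apart.

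The genes called higher were nearly all of the class with KRAB and fingers, which made up 95 of the 126 members tested. In that class 16 were called higher (16.8%, against 9.24% of all genes) and 3 lower (3.16%, against 9.37%), with a median difference of 0.11. In the class with fingers and no KRAB match 1 of 27 was called higher (3.7%) and 3 lower (11.1%), with a median of 0.02. The other numbered Zfp genes lay between, with 12 of 149 called higher (8.05%), 4 lower (2.68%) and a median of 0.06. The difference between classes was not tested. A gene placed in the class without a KRAB match may still carry the domain, since only the pattern was searched. By library, the median deviation of the KRAB class from its mean over all 20 libraries was 0.04, 0.07, 0.10 and 0.14 in Trim71-KO and -0.01, -0.06, -0.07 and 0.04 in Trim71-cond. Trim71-cond 3B thus lay just under the lowest Trim71-KO library, 1A. The same median also moved within single clones. It was 0.0152 at 20/1 and -0.0536 at 5/2 in C16, and -0.0554 and -0.0028 in C15. WT C7 stood at 0.07, above Trim71-KO 1A.

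**Figure D1:**
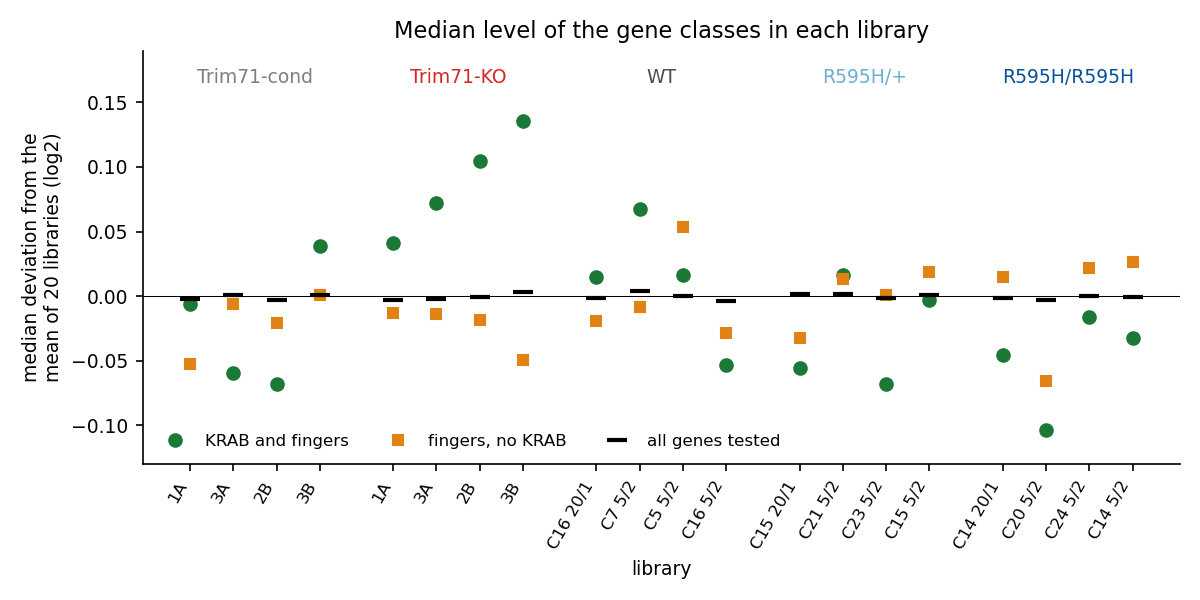
Median deviation of each gene class from its own mean over the 20 libraries (y axis, log2), by library and group (x axis); circles are genes with KRAB and fingers, squares genes with fingers and no KRAB match, dashes all genes tested. The 4 Trim71-KO libraries have the KRAB class at 0.04 to 0.14, and the clone libraries have it at -0.10 (C20) to 0.07 (C7). All genes stay within 0.01 of 0 in every library.

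Zfp975 had the smallest p of the members. Its level was 7.29, 7.30, 7.27 and 7.48 in the Trim71-cond libraries 1A, 3A, 2B and 3B and 7.66, 7.70, 7.70 and 7.67 in the Trim71-KO libraries. All 4 knockout libraries stood above all 4 controls, even with the control 3B set apart from the other three. The difference was 0.35 ± 0.06 (SE, n = 4 and 4, limma adjusted p = 0.000899), a 1.27-fold change on this scale. Zfp976, its neighbour at chr7:42609526-42642588, read 7.75, 7.63, 7.71 and 7.79 in Trim71-cond and 7.95, 7.99, 8.10 and 8.10 in Trim71-KO, again without overlap. It rose by 0.32 ± 0.06 (limma adjusted p = 0.0014). The 2 genes share 10.66% and 9.80% of their 100-base windows with each other, the remaining windows being different.

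Zfp995 on chromosome 17 showed the largest rise, 0.36 ± 0.08 (limma adjusted p = 0.00422). Its levels were 5.69, 5.79, 5.65 and 5.79 in Trim71-cond and 6.09, 6.12, 5.94 and 6.24 in Trim71-KO. Zfp982, a KRAB gene of the chromosome 4 cluster reported to support stemness in mouse embryonic stem cells, rose by 0.35 ± 0.07 (limma adjusted p = 0.00126), from 7.33 to 7.59 over the controls to 7.74 to 7.87 in the knockout. Zfp992 of the same cluster rose by 0.30 ± 0.06 (limma adjusted p = 0.00169), Zfp808 on chromosome 13 by 0.29 ± 0.06 (limma adjusted p = 0.00198) and Zfp950 on chromosome 19 by 0.32 ± 0.08 (limma adjusted p = 0.0082). None of these 5 genes overlapped between groups. Zfp970 (0.35), Zfp993 (0.29), Zfp938 (0.29) and Zfp945 (0.28) were called as well, with adjusted p from 0.00971 to 0.0302.

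Zfp652 was the only gene without a KRAB match to be called higher, while 16 of the 27 tested in its class stood above 0. It encodes a DNA-binding partner of the corepressor CBFA2T3. Its level was 7.25, 7.19, 7.08 and 7.05 in Trim71-cond and 7.32, 7.38, 7.71 and 7.41 in Trim71-KO, the library 2B being the highest. The difference was 0.31 ± 0.08 (limma adjusted p = 0.00964), with the overlapping exons named above unresolved. Zfp850, Zfp760, Zfp820, Zfp942 and Zfp626, which lie outside the rule for naming and were added after their values were seen to complete the count, rose by 0.21 to 0.27.

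Genes called lower were fewer and of mixed kinds. Zfp773, a KRAB gene on chromosome 7, read 5.21, 5.41, 4.93 and 4.80 in Trim71-cond and 4.55, 4.81, 4.49 and 4.57 in Trim71-KO. The groups overlapped by a small margin, the control 3B lying under the knockout 3A. It fell by 0.48 on the log2 scale (SE 0.11, limma adjusted p = 0.0058), 1.4-fold, the largest change of any member in this comparison. Zfp819, a KRAB gene that has been tied to repression of repeated elements in pluripotent cells, read 6.02, 5.85, 6.14 and 6.02 in Trim71-cond and 5.60, 5.72, 5.68 and 5.63 in Trim71-KO, without overlap, and fell by 0.35 (SE 0.08, limma adjusted p = 0.0052).

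The others called lower were 3 genes with fingers and no KRAB match, and 1 KRAB gene with 2 fingers. For these 3 genes the missing match does not show that the domain is absent. Zfp622, whose yeast relative takes part in maturation of the large ribosomal subunit, read 6.93, 6.86, 6.96 and 6.85 in Trim71-cond and 6.59, 6.66, 6.58 and 6.70 in Trim71-KO and fell by 0.27 (SE 0.07, limma adjusted p = 0.00953). Without both 1A libraries its adjusted p was 0.0655. Zfp746 encodes PARIS, a substrate of the ubiquitin ligase parkin. It read 4.45, 4.65, 4.56 and 4.39 in Trim71-cond and 4.36, 4.22, 4.27 and 4.10 in Trim71-KO and fell by 0.27 (SE 0.09, limma adjusted p = 0.0333). Zfp740 fell by 0.24 (SE 0.07, limma adjusted p = 0.0191). Zfp688 fell by 0.23 (SE 0.08, limma adjusted p = 0.0493), and this call was lost in 13 of 14 alternative analyses.

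**Figure D2:**
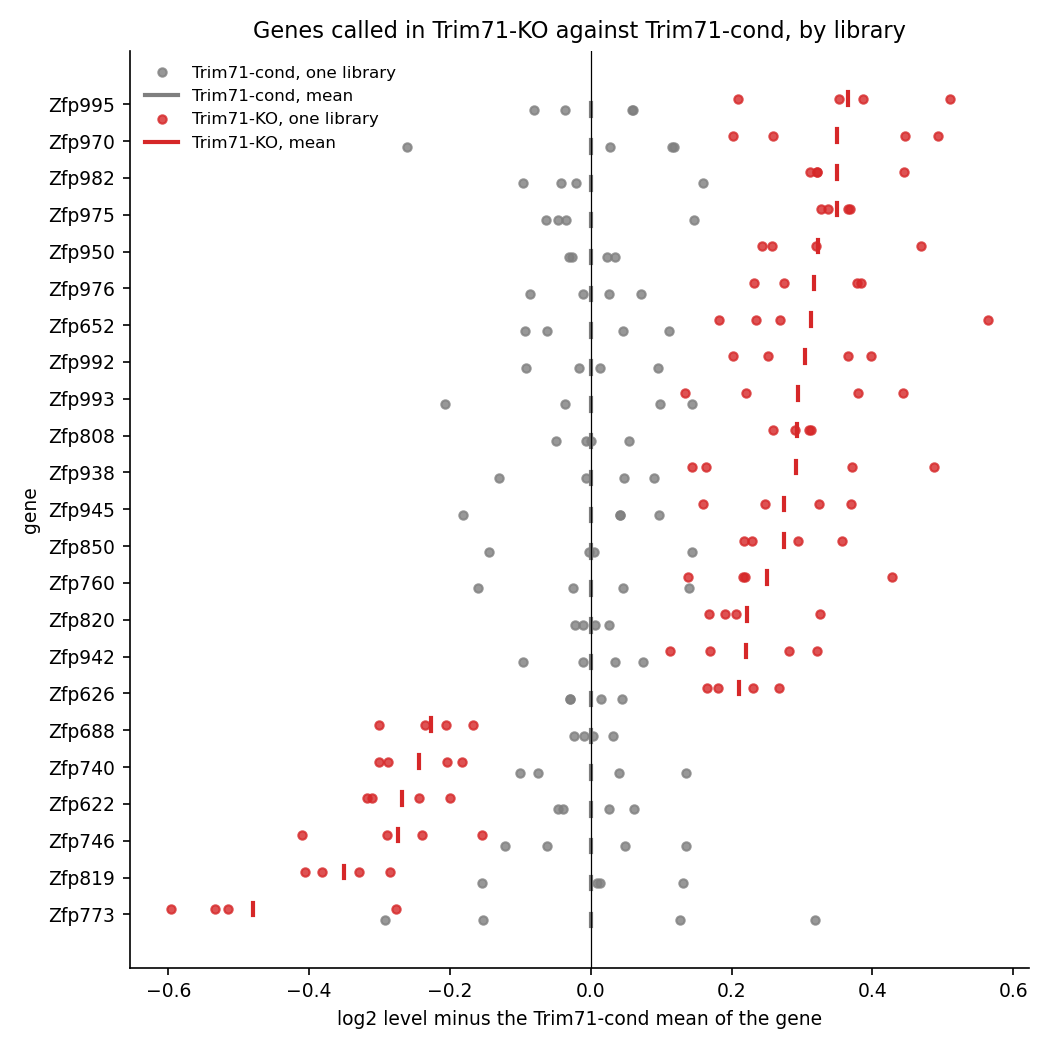
Level of each of the 23 called genes in every conditional library, as the log2 level minus the Trim71-cond mean of that gene (x axis), one gene per line (y axis); grey points are Trim71-cond libraries, red points Trim71-KO libraries, upright bars group means. The 17 genes that rose moved by 0.21 to 0.36 and the 6 that fell by 0.23 to 0.48, and most genes show no overlap between the colours.

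Of the 23 called genes, 12 were called under every alternative analysis that tested them. They were Zfp652, Zfp773, Zfp808, Zfp819, Zfp850, Zfp945, Zfp950, Zfp975, Zfp976, Zfp982, Zfp992 and Zfp995. Zfp773 was tested in 14 of the 15 alternatives, its level lying under the stricter filter on low values. Leaving out either 2B library lowered the count to 12 higher and 3 lower. Without Trim71-cond 2B, Zfp626, Zfp688, Zfp740, Zfp746, Zfp760, Zfp938, Zfp942, Zfp970 and Zfp993 lost their calls, and without Trim71-KO 2B Zfp820 did in place of Zfp626 and Zfp938, the other 7 being lost again. Without Trim71-cond 3A the calls lost were Zfp688, Zfp746, Zfp760, Zfp820, Zfp938 and Zfp993, and without Trim71-KO 3A Zfp626 took the place of Zfp820. Without Trim71-KO 3B, Zfp626, Zfp688, Zfp746, Zfp760, Zfp938, Zfp942 and Zfp970 were lost, and without Trim71-cond 3B Zfp626, Zfp688 and Zfp760. Leaving out either 1A library alone cost the call of Zfp688. The largest adjusted p by limma over the alternatives of each of these genes ran from 0.0697 (Zfp820) to 0.141 (Zfp688). With the replicate code as a block the members called were 14 higher and 4 lower, and Zfp626, Zfp688, Zfp746, Zfp760 and Zfp820 lost their calls.

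Several members with a known role did not pass the test in the knockout. Zfp809, which recruits TRIM28 to the primer binding site of murine leukemia viruses, read 6.66, 6.70, 6.70 and 6.68 in Trim71-cond and 6.70, 6.84, 6.61 and 6.48 in Trim71-KO, the knockout libraries scattering on both sides of the controls. The difference was -0.03 ± 0.08 (limma adjusted p = 0.842). Zfp932, which binds endogenous retroviruses in these cells and shares 24.76% of its windows mostly with Gm15446, differed by 0.06 ± 0.09 (limma adjusted p = 0.692). Zfp638, which takes part in silencing of unintegrated retroviral DNA, differed by 0.05, Zfp644, a component of the G9a and GLP histone methyltransferase complex, by 0.02, and Zfp661 by -0.04, none being called.

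Members of other complexes were likewise not called. The difference was 0.10 for Zfp609, which works with the cohesin loader NIPBL, 0.01 for Zfp687 and 0.06 for the X-linked gene Zfp711, whose product binds the histone demethylase PHF8. Zfp706, a repressor of Klf4 in embryonic stem cells, differed by -0.11, Zfp830, a splicing-related factor, by -0.13 and Zfp800 by 0.21. Zfp600 differed by -0.19 (limma adjusted p = 0.0859), with the limit on its shared sequence given above.

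By chromosomal cluster, no test of a difference between clusters was made. Of all genes tested in the knockout comparison, 49.4% stood above 0, 9.24% were called higher and 9.37% lower. In Trim71-KO cells all 12 tested genes of the chromosome 17 cluster at chr17:21383748-22867134 stood above 0, with 5 called higher, none lower, a median of 0.22 and a range of 0.02 to 0.36. In the chromosome 4 cluster 14 of 17 stood above 0, with 3 called higher, a median of 0.10 and a range of -0.19 to 0.35. The chromosome 7 cluster at chr7:41633203-43618285 had 7 of 8 above 0, with Zfp975 and Zfp976 called higher and Zfp819 at its edge called lower. The 3 tested genes of the cluster on chromosome 6, among them Zfp746, were all below 0, with a median of -0.27. Values of neighbours may not be independent, and some neighbours share sequence. In the chromosome 17 cluster described above the largest share was 5.394% of windows (Zfp994), while on chromosome 4 Zfp991 shared 73.84%. Among the 97 tested members that share under 10% of their windows, 11 were called higher (11.3%) and 6 lower (6.19%), with a median of 0.08. Of the 29 that share more, 6 were called higher (20.7%) and 0 lower, with a median of 0.10. Members with shared sequence were thus called higher more often, while those sharing less were nearer the 9.24% of all genes. This difference was not tested.

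**Figure D3:**
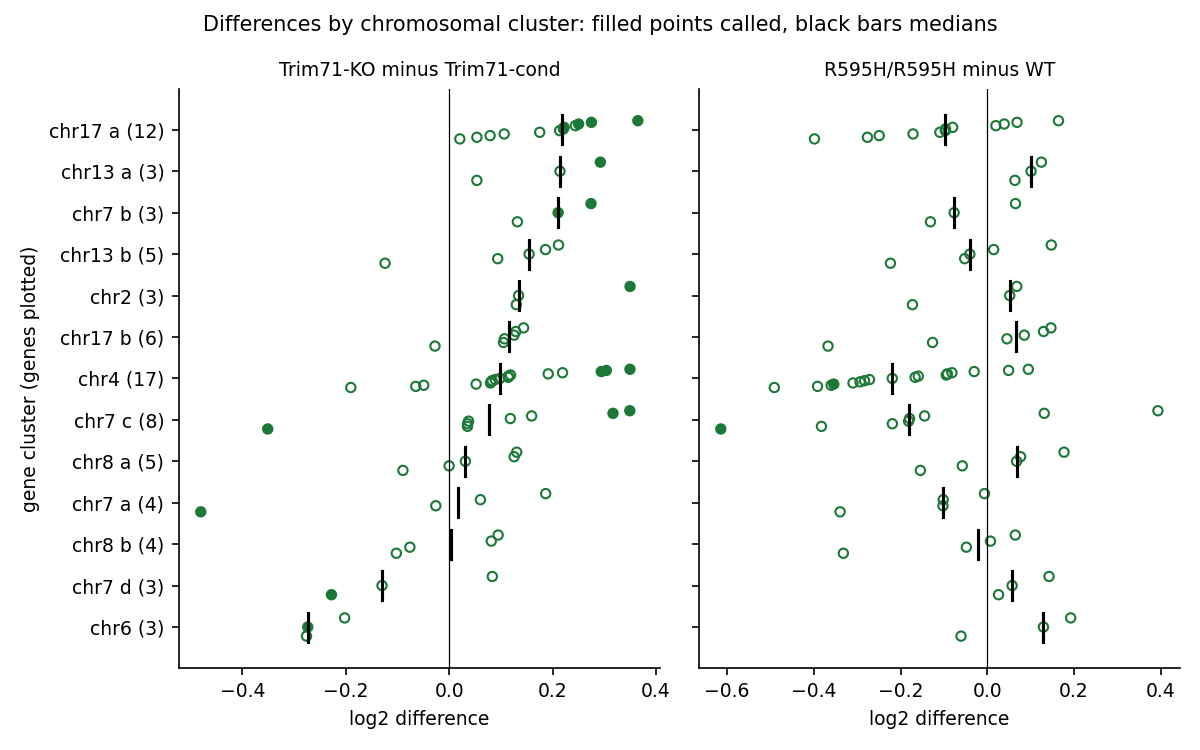
Log2 difference of each tested gene (x axis) by chromosomal cluster (y axis, tested genes in brackets; letters number clusters along a chromosome), for Trim71-KO minus Trim71-cond at left and R595H/R595H minus WT at right; filled points were called and black bars are cluster medians. In the chromosome 4 cluster the median is 0.10 at left and -0.22 at right, and in the larger chromosome 17 cluster 0.22 at left and -0.10 at right.

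Partners of KRAB zinc finger proteins were listed as the other genes of this pathway. Of 39 tested, 4 were called higher (10.3%, against 9.24% of all genes) and 8 lower (20.5%, against 9.37%) in Trim71-KO cells, with a median difference of -0.02. The 12 calls fell to 7 without Trim71-cond 2B, to 7 without Trim71-KO 3B and to 8 without Trim71-KO 3A or without the trend of the variance. Neither TRIM28 itself (Trim28, -0.12 ± 0.05, limma adjusted p = 0.0833) nor Setdb1 (-0.04) was called. Within the TRIM28 and SETDB1 group, Atf7ip, which stabilises SETDB1, rose by 0.26, whereas Cbx3, which encodes HP1 gamma, fell by 0.37 and Smarcad1, a remodeller that binds TRIM28, fell by 0.37. In the DNA methylation group the de novo methyltransferase gene Dnmt3a fell by 0.67 (SE 0.10, limma adjusted p = 6.52e-05), Uhrf1, which guides maintenance methylation, fell by 0.49 and Dnmt1 by 0.16, while Dnmt3l rose by 0.21. Of the 11 NuRD genes Hdac2 rose by 0.18, and Mta1 and Rbbp7 fell by 0.32 and 0.26. No gene of the other H3K9 methyltransferases, HUSH and MORC, or histone H3.3 chaperones was called, and of the zinc fingers of imprints and repeats Zfp57 rose by 0.22 and Zfp42 fell by 0.20.

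In R595H/R595H clones 0 of 127 tested members were called higher than in WT and 2 were called lower, by limma over all genes tested. Among all 9588 genes tested, 2.19% were called higher and 1.23% lower (3.42% in all). At an unadjusted p under 0.05, 7 of the 127 members were higher and 22 lower, beside 1025 and 996 of all 9588 genes. The median difference of the members was -0.05 (-0.0238 without clone C20, -0.0273 without C7 and -0.0885 with equal library totals) against 0.00 for all genes, and 42.5% stood above 0 against 49.4%. In 29 members all R595H/R595H clones were below all WT clones, and in 10 all were above, against 15.4% and 14.3% of all genes. The class with KRAB and fingers, 95 of the 127 tested, held both called genes (2.11%, against 1.23% of all genes called lower). Its median was -0.06, beside 0.02 for the class without a KRAB match.

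Zfp819 was one of the 2, and the only member called in both systems. Its level in WT was 6.10 and 5.89 in the libraries of C16, 6.31 in C7 and 6.33 in C5. In R595H/+ it was 6.21 and 6.15 in C15, 6.21 in C21 and 5.73 in C23. In R595H/R595H it was 5.56 and 5.59 in C14, 5.64 in C20 and 5.57 in C24, all below every WT library. The mean over clones fell from 6.21 ± 0.19 (SD, n = 3) in WT to 5.60 ± 0.04 (SD, n = 3) in R595H/R595H. The difference was -0.61 ± 0.13 (SE, limma adjusted p = 0.0195), 1.53-fold.

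Across the alternatives the fall of Zfp819 ran from 0.51 to 0.72 in size, and 13 of 17 kept the call. Within the 5/2 libraries it was -0.58 (limma adjusted p = 0.0464), and with C14 and C24 as 1 value -0.60 (limma adjusted p = 0.0395). With the Y-linked mean as a covariate it was -0.51 (limma adjusted p = 0.0611). Without clone C14, C7 or C5 the adjusted p was 0.0625, 0.0911 or 0.0835 by limma, with differences of -0.60, -0.57 and -0.56. The test of the difference between its falls in both systems gave 0.26 ± 0.15 (limma adjusted p = 0.351).

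Zfp991 of the chromosome 4 cluster was the other gene called. It read 7.21 and 7.15 in C16, 7.29 in C7 and 7.17 in C5 among WT, 6.89 and 6.88 in C14, 6.78 in C20 and 6.92 in C24 among R595H/R595H, and 6.99 to 7.12 in R595H/+. The R595H/+ libraries thus lay between both homozygous groups with no overlap. The difference between R595H/R595H and WT was -0.35 ± 0.08 (limma adjusted p = 0.026), and with C14 and C24 as 1 value it was -0.38 (limma adjusted p = 0.0679). Without clone C16, C14, C7, C20 or C5 its call was lost as well. Over all members, leaving out 1 clone gave 0 calls without C14, C7 or C5, 5 without C20 and 7 without the R595H/+ clone C21. Its sequence is largely shared with Znf41-ps and Zfp993, so that the value may stand for several copies.

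**Figure D4:**
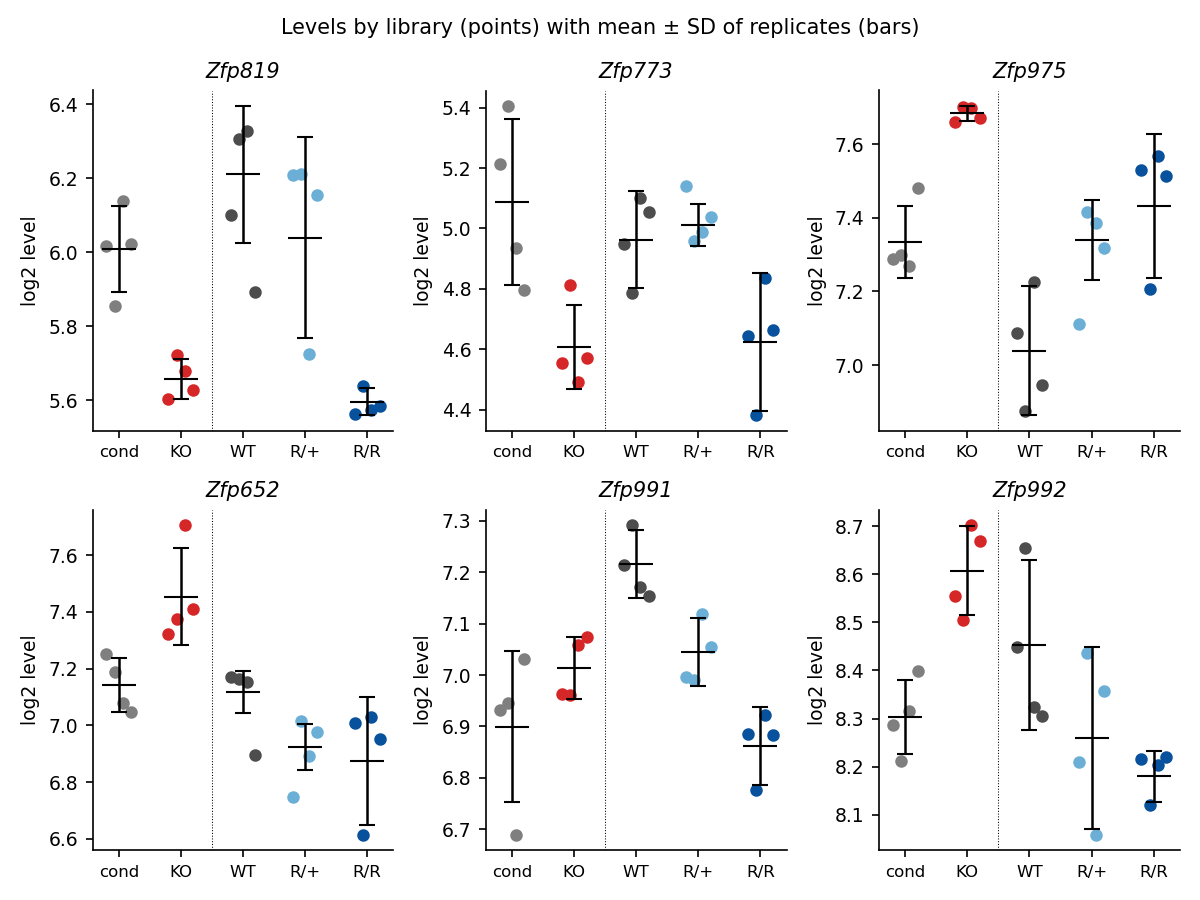
Log2 level (y axis) of 6 genes in every library (points) by genotype (x axis: cond and KO are Trim71-cond and Trim71-KO, R/+ and R/R are R595H/+ and R595H/R595H), with the mean ± SD over 4 libraries or 3 clones as bars; the dotted line parts both systems. Zfp819 is low in Trim71-KO (5.60 to 5.72) and in R595H/R595H (5.56 to 5.64), while Zfp992 is above its controls in Trim71-KO (8.51 to 8.70) and below WT in R595H/R595H (8.12 to 8.22).

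Among the members called in Trim71-KO, most did not pass the test in R595H/R595H. Zfp975 stood at 7.09 and 6.95 in C16, 6.88 in C7 and 7.23 in C5, and at 7.53 and 7.51 in C14, 7.21 in C20 and 7.57 in C24 among R595H/R595H, C20 lying under the WT clone C5. The difference was 0.39 ± 0.11 (limma adjusted p = 0.0625), the largest positive one of any member in this comparison and close to the 0.35 of Trim71-KO. Zfp773 differed by -0.34 ± 0.12 (limma adjusted p = 0.114), beside the fall of 0.48 in Trim71-KO. Zfp622 differed by -0.09, Zfp740 by 0.08, Zfp688 by 0.06 and Zfp746 by 0.13, all uncalled. Of the role genes Zfp809 differed by -0.03, Zfp932 by -0.08, Zfp638 by -0.23 (limma adjusted p = 0.0989), Zfp644 by -0.15 and Zfp600 by -0.39 (limma adjusted p = 0.0582), none being called.

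In R595H/R595H against WT the chromosome 4 cluster had 2 of 17 genes above 0, against 49.4% of all genes. Its median was -0.22 and its range -0.49 to 0.09. In the chromosome 17 cluster 4 of 12 were above 0 with a median of -0.10, and in the chromosome 7 cluster of Zfp819 2 of 8 with a median of -0.18. Of the pathway genes, 1 of 39 was called: Dnmt3b, the other de novo methyltransferase gene, rose by 0.47 ± 0.11 (limma adjusted p = 0.0341), a call that was lost with C14 and C24 as 1 value, with equal library totals, and without clone C14, C16, C7 or C15.

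In R595H/+ clones 0 of 127 members were called against WT, and 0 of all 9588 genes (0.0%) by limma. At an unadjusted p under 0.05, 3 of the 127 members were higher and 12 lower, beside 384 and 352 of all 9588 genes. The median member difference was -0.04, with 45 of 127 above 0. In 18 members all R595H/+ clones were below all WT clones and in 3 all were above, against 6.18% and 6.27% of all genes. Zfp958, a KRAB gene on chromosome 8, had the smallest p. It read 7.00 and 6.82 in C16, 7.00 in C7 and 7.13 in C5 among WT, and 6.60 and 6.72 in C15, 6.75 in C21 and 6.79 in C23 among R595H/+, with every R595H/+ library under every WT library. The difference was -0.28 ± 0.08 (limma adjusted p = 0.518), and its level in R595H/R595H was 6.71 to 6.79.

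Between R595H/R595H and R595H/+ 0 of 127 members were called by limma, against 0.574% of all genes called higher and 0.198% lower (0.772% in all). At an unadjusted p under 0.05, 6 of the 127 members were higher and 10 lower, beside 914 and 879 of all 9588 genes. The median was 0.00 and 62 of 127 stood above 0. In 14 members the R595H/R595H clones were all higher and in 14 all lower, against 12.4% and 13.0% of all genes. Zfp704, with fingers and no KRAB match, had the smallest p. It read 7.60 and 7.57 in C15, 7.57 in C21 and 7.39 in C23 among R595H/+, and 7.79 to 7.83 over the R595H/R595H libraries, without overlap. The difference was 0.30 ± 0.08 (limma adjusted p = 0.0734).

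The effect of Trim71-KO was then set against the effect of R595H/R595H in one fit of all groups, which tests whether both effects differ. System and genotype cannot be told apart in this test. Of 127 members 6 were called, all with the knockout effect above the mutation effect, against 0.73% of all genes called in that direction and 0.688% in the other (1.42% in all). The median of the difference of effects was 0.14 over members and 0.00 over all genes, with 95 of 127 above 0. The class with KRAB and fingers had a median of 0.18 with 78 of 95 above 0, and the class without a KRAB match a median of -0.02 with 14 of 28 above 0.

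Zfp992 showed the largest of these differences, 0.58 ± 0.12 (limma adjusted p = 0.0103). It read 8.29, 8.21, 8.32 and 8.40 in Trim71-cond and 8.56, 8.51, 8.70 and 8.67 in Trim71-KO, a rise in all 4 libraries over all controls. In WT it read 8.45 and 8.31 in C16, 8.65 in C7 and 8.33 in C5, and in R595H/R595H 8.22 and 8.22 in C14, 8.12 in C20 and 8.20 in C24, each below all WT libraries. The call was lost without clone C7, the WT clone with the highest level (0.47, limma adjusted p = 0.0545), and was kept in the other 26 analyses. Zfp992 shares 28.6% of its windows with other genes, mostly Zfp991.

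The other 5 were called in fewer of the alternative analyses. Zfp652 rose in Trim71-KO, as given above, and read 7.17 and 6.90 in C16, 7.17 in C7 and 7.15 in C5 against 7.01 and 6.95 in C14, 6.61 in C20 and 7.03 in C24, a difference of effects of 0.56 ± 0.13 (limma adjusted p = 0.0318). Its highest values in R595H/R595H overlapped those of WT through the 5/2 library of C16. Zfp995 differed by 0.54 (limma adjusted p = 0.0378), Zfp719 by 0.54 (limma adjusted p = 0.0479), Zfp988 by 0.47 (limma adjusted p = 0.0456) and Zfp991 by 0.47 (limma adjusted p = 0.0309). Of 27 alternative analyses each, Zfp652 was called in 18, Zfp991 in 19, Zfp995 in 12, Zfp988 in 7 and Zfp719 in 6. Leaving out 1 library or clone gave from 0 calls (without C7) to 7 (without the R595H/+ clone C23), and 1 without Trim71-cond 2B. With the replicate code as a block Zfp992 remained as the 1 member called. Within the 5/2 libraries of the clones, Zfp992 (0.55, limma adjusted p = 0.0239) and Zfp991 (0.46, limma adjusted p = 0.0449) were called.

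**Figure D5:**
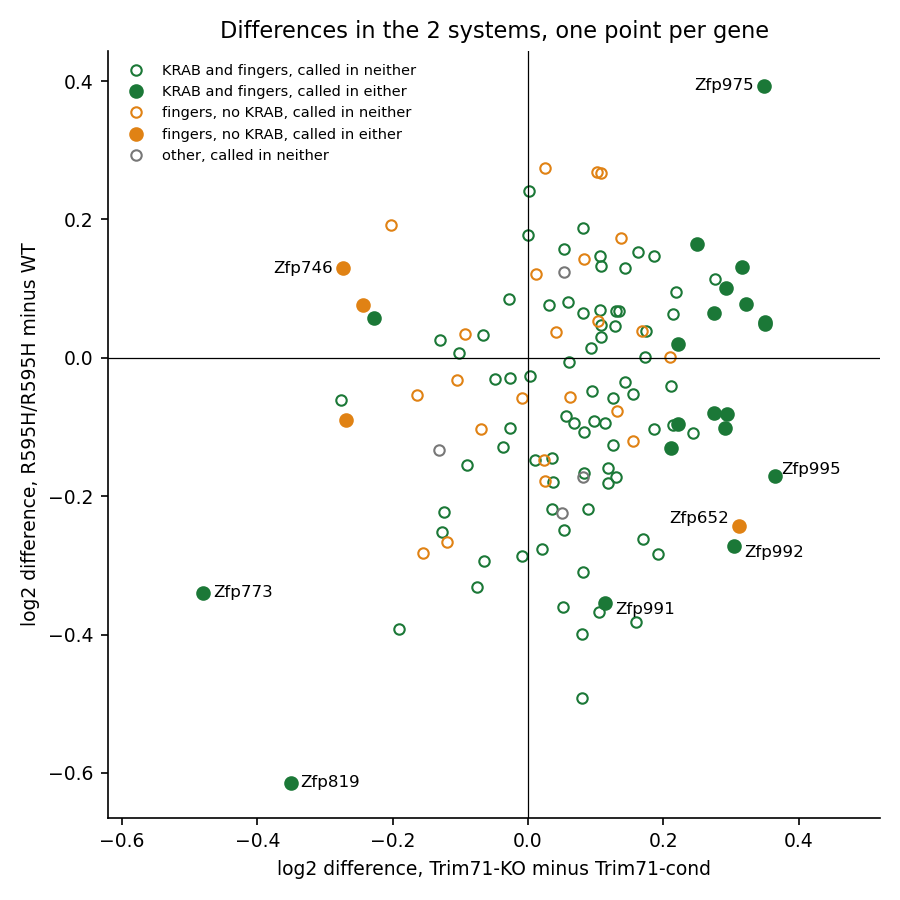
Log2 difference of each gene tested in both systems in Trim71-KO minus Trim71-cond (x axis) and R595H/R595H minus WT (y axis), coloured by class; filled points were called in either comparison. Zfp819 lies low on both axes (-0.35 and -0.61), Zfp975 high on both (0.35 and 0.39), and Zfp992 at 0.30 and -0.27.

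By cluster, the difference of effects was above 0 in 16 of 17 genes on chromosome 4, with a median of 0.30 and 3 called (Zfp992, Zfp988 and Zfp991), and in all 12 tested genes of the larger chromosome 17 cluster, with a median of 0.31 and Zfp995 called. It was below 0 in all 4 tested genes of the chromosome 6 cluster, with a median of -0.30, and in all 3 of chr7:127244274-127885996, none being called.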

How the data were processed

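RNA of 20 libraries was sequenced as paired-end reads after preparation with a TruSeq kit, per the labels' protocols. The authors deposited 1 table of expression values that behave as log2 normalised levels and run from -0.65 to 18.0. The base of the logarithm is inferred from the values. CASAVA 1.8, STAR and DESeq2 are named in the submitters' processing notes. Genome build, annotation, counting mode and transformation: not given in the sources used here. Depth is unknown. Hence fold changes are on this scale, on which low genes may be shrunk. Library medians lie between 5.15 and 5.20.

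From these values, limma 3.58.1 (R 4.3.3; trend and robust empirical Bayes) was fitted to all genes with a mean of at least the log2 of 10 over the libraries of the fit. Conditional libraries (4 and 4) were fitted alone, and clones after averaging the libraries of a clone (9 clone values). Another fit, of 5 group means over both systems, gave the difference of effects. Benjamini-Hochberg adjustment ran over all genes tested, with a threshold of 0.05. The procedure was tested on simulated data. Differences are given ± SE and levels ± SD. No interval from counts can be given.

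The members, lists and tests were chosen with earlier results of these data known. Named are all called members (at most 12 per direction and comparison), those called in 2 comparisons sharing no samples, a list of genes with known roles, the 5 highest and 5 lowest per kilobase of exon, clusters of at least 3 tested genes, and the smallest p of each comparison. Motifs and the printed promoters were chosen after seeing results. Gene models came from GENCODE vM21 (GRCm38), promoters from RefSeq.

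The codes 1A, 3A, 2B and 3B recur in both conditional genotypes, and the day tag in the labels repeats their digit. Deviations of same-coded libraries from their group means correlated across genes at -0.89 (1A), -0.117 (3A), -0.0895 (2B) and 0.13 (3B). Between libraries of different codes the correlations ran from -0.151 to 0.428. The values of 3A, 2B and 3B lay within that range, and that of 1A lay below it. The full code entered as a block as an alternative. A block by the digit, which 3A and 3B share, was not tried. The title and the day tag of one C15 library give different dates, and the title was followed. Alternatives were other scalings, filters and empirical Bayes settings, a Y-linked covariate, 1 date only and leaving out each replicate. The last pair was added after seeing the data, namely leaving out both 1A libraries and taking clones C14 and C24 as 1 value.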

Additional observations from a re-analysis of the deposited data

Results flagged for a closer look

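In 4 genes 1 library stood apart from the other three of its group, among 88 groups of 4 libraries looked at for the 44 named genes, and chance alone flags about 1 group in 20. Library Trim71-cond 3B was the high one for Zfp719 (5.88, the others 5.53 to 5.56), Zfp975 (7.48) and Zfp979 (9.57), and Trim71-KO 3B was the high one for Zfp982 (7.87). All 4 genes carry KRAB and fingers, and Trim71-cond 3B also had the highest median of that class among the controls. For Zfp975 and Zfp982 the groups did not overlap with these libraries included.

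For 6 genes the effect of Trim71-KO and that of R595H/R595H differed by the limma test of the difference. The knockout effect exceeded the mutation effect by 0.58 for Zfp992, 0.56 for Zfp652, 0.54 for Zfp995, 0.54 for Zfp719, 0.47 for Zfp988 and 0.47 for Zfp991. System and genotype cannot be told apart in these values.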

How the results depend on the processing

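The 74 values of single members were recomputed under 1234 alternatives. In 1087 they kept direction and side of the threshold, in 117 a call was lost, in 9 one was gained, and in 21 the sign turned, always in values that were not called. Leaving out 1 replicate at a time gave 15 to 25 called members for Trim71-KO, 0 to 7 for R595H/R595H against WT, 0 to 0 for R595H/+ and 0 to 1 for R595H/R595H against R595H/+, and 0 to 7 for the difference of effects. The range was 7 to 11 pathway genes for Trim71-KO, 0 to 2 for R595H/R595H against WT, and 0 to 0 for both comparisons with R595H/+. The median member difference ran from 0.0693 to 0.0910, from -0.0658 to -0.0238, from -0.0580 to -0.0161 and from -0.0219 to 0.0341 in the 4 comparisons in that order.

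For R595H/R595H against WT, 1 member was called with the Y-linked covariate and 1 with C14 and C24 as 1 value. There 0 pathway genes were called with C14 and C24 as 1 value and 0 with equal library totals. For the difference of effects 3 were called without trend, 1 with the replicate block, 2 with 5/2 libraries only, 3 with the Y-linked covariate and 2 with C14 and C24 as 1 value. With the replicate block 18 of the 23 calls in Trim71-KO remained and no other was added, so the block changed no count there by over 1.5 times. Apart from the opposite deviations of 1A, the codes share only a number in these values, and crossing them was not tried.

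The sign turned in Trim71-KO for Zfp661, from -0.04 to 0.0085 without both 1A libraries, and on leaving out 1 library for 4 genes: Zfp644 (-0.0256 to 0.0622), Zfp687 (-0.0626 to 0.0508), Zfp809 (-0.0864 to 0.0316) and Zfp932 (-0.0108 to 0.1116). In R595H/R595H against WT it turned on leaving out 1 clone for Zfp706 (-0.0834 to 0.0424), Zfp938 (-0.2136 to 0.0437), Zfp945 (-0.163 to 0.0665) and Zfp809 (-0.0611 to 0.0141), and with the Y-linked covariate for Zfp932 (0.0078). Zfp800 stood at 0.0011 and became -0.0079 with quantile normalization, -0.0339 with equal totals, -0.0103 with 5/2 libraries only, -0.0034 with the Y-linked covariate, -0.0252 with C14 and C24 as 1 value and -0.038 to 0.0536 on leaving out 1 clone. The cause was not tested.

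The depth of each library is unknown, which sets no limit that can be given for the 25 members under the filter.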
